A study of Zea mays with 6 samples.

Results

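Transcripts of 6 hydrogen peroxide-scavenging enzyme genes, 3 catalases and 3 ascorbate peroxidases, were followed in maize (Zea mays) leaves. The genes were taken by their gene model IDs. The catalases are cat1 (GRMZM2G088212), cat2 (GRMZM2G090568) and cat3 (GRMZM2G079348), and the ascorbate peroxidases are GRMZM2G054300, apx2 (GRMZM2G140667) and GRMZM2G137839. All 6 were found among the 39628 gene models of each table. Field-grown plants of the inbred Q319, called wild type here, were compared at leaf stage 6 with plants of a transgenic line, L100, with 3 libraries per line. The transgene, its promoter, the number of plants per library and the hour of sampling are not given in the labels, and the transgene's own transcript could not be looked for. Since separate plants per library are not stated either, each p-value covers the spread of these libraries, which may be technical. The names cat1, cat2 and apx2 come from RefSeq records. GRMZM2G137839 has the synonym POD1 in its record, the record of GRMZM2G054300 holds no name, and GRMZM2G079348 has no matching record, so its name and the family of the unnamed ascorbate peroxidases rest on the gene list given for this work.

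Hydrogen peroxide is made in leaves by photorespiration in peroxisomes, by electron transport in chloroplasts and by oxidases at the plasma membrane. Catalase, a haem enzyme, splits it into water and oxygen without a reductant. Ascorbate peroxidase reduces it to water at the expense of ascorbate, which dehydroascorbate reductase and glutathione reductase then restore. Maize leaves divide the catalases between cell types. CAT2 is known from bundle sheath cells and CAT3 from mesophyll cells, and the cat3 transcript is known to follow the circadian clock. CAT1 is best known from kernels and from responses to abscisic acid and stress.

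The libraries held between 6458248 and 9922468 counts, and a floor of 3 counts corresponded to 0.302 to 0.465 CPM, the count scaled to a fixed library total. Counts of the 6 genes lay between 164 and 6371 per library, far above that floor. The wild type libraries differed from each other more than the L100 libraries did. On the first principal component of log2 CPM, wild type replicate 3 lay at -116, far from wild type replicates 1 and 2 (-35.5 and 7.16) and from L100 (33.1 to 60.9). Several results that rest on this library are also given without it. Leaf markers were abundant in each library. The mesophyll genes pep1 and pdk1 summed to 44853 to 97503 CPM and 4 bundle sheath genes to 14134 to 27436 CPM, while 23 of 24 seed storage genes were at 0 counts in all libraries.

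Of the 6 genes, cat3 had the largest log2 fold change between the lines, and its libraries did not overlap. That is 1 of 6 genes without overlap, near the background of 16.2% over all tested genes, so the count is not a result about these genes. By counts per kilobase, cat2 made up 68.2% to 83.2% of the catalase transcripts in L100 and 42.6% to 80.8% in wild type, so its share overlapped. The level of cat3 was lowest in L100. The libraries of the lines overlapped in cat1, cat2 and all 3 ascorbate peroxidases. In edgeR's quasi-likelihood test, adjusted by Benjamini-Hochberg over 18702 tested genes with a threshold of 0.05, none of the 6 genes was called, where 0.834% of all tested genes were. At an unadjusted p under 0.05 there was 1 of the 6 (cat3), against 10% of all tested genes. DESeq2 called 1 of the 6, cat3, where it called 2.72% of all genes it tested, and limma-voom called 0, against 0.829% of all.

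**Figure D1:**
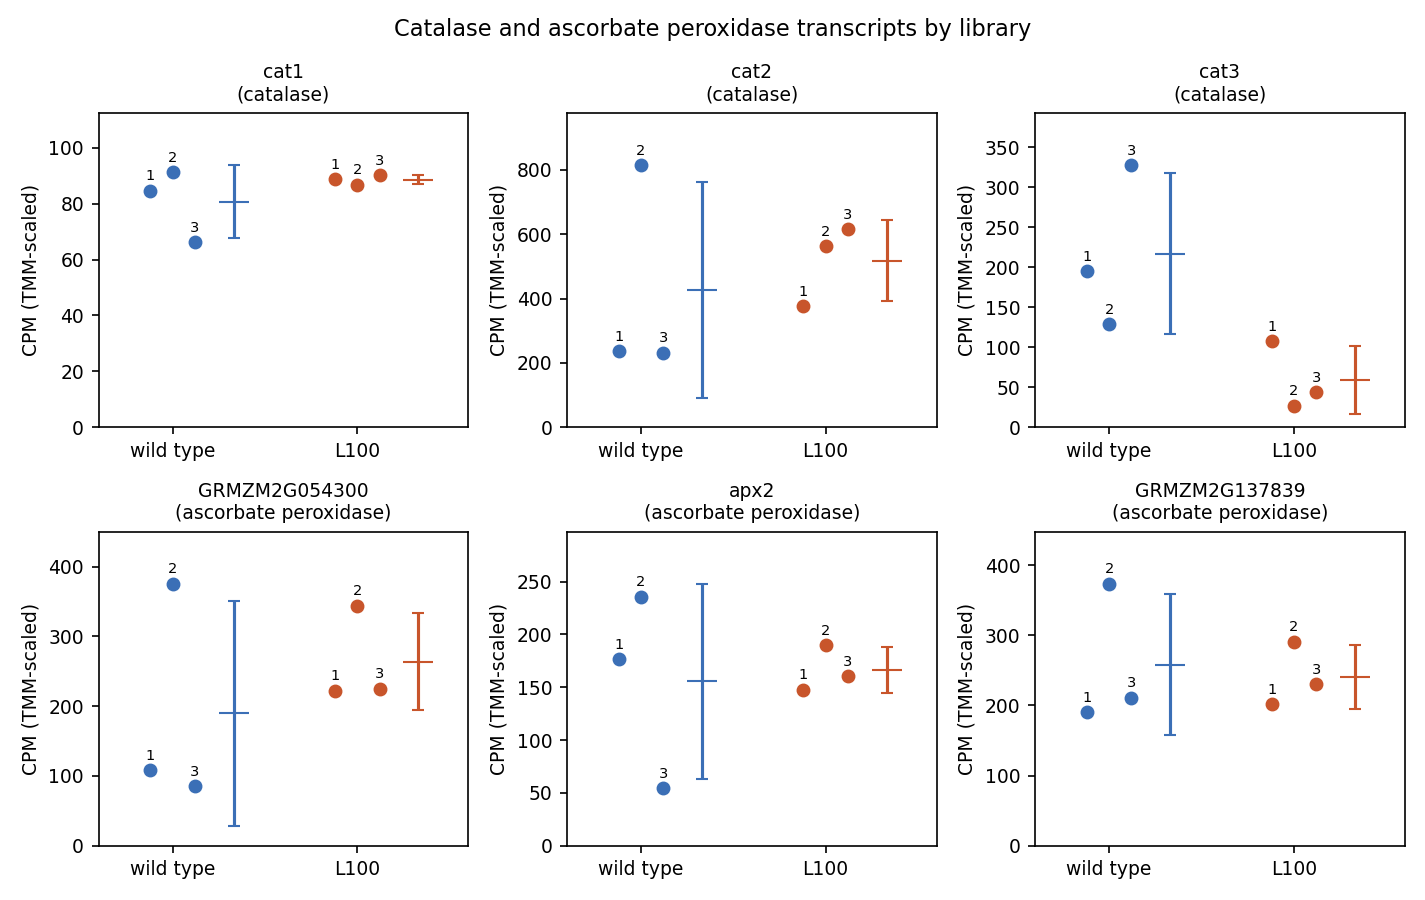
Level of each gene in every library, as CPM on TMM-scaled library totals. Points are single libraries numbered by replicate, and the line with bars beside them is the mean ± SD of 3 libraries. Only in the cat3 panel do all L100 points lie under all wild type points, and in every other panel wild type replicate 2 is the highest point. Among the L100 points, replicate 2 is the highest in each ascorbate peroxidase and replicate 3 in cat1 and cat2. In cat3, replicate 2 is the lowest point of each line.

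The cat3 transcript encodes the catalase associated with mesophyll cells. It had 195, 129 and 328 CPM in wild type replicates 1 to 3 and 107, 26.6 and 43.6 CPM in L100 replicates 1 to 3. Every L100 library was therefore below every wild type library, although the margin between L100 replicate 1 and wild type replicate 2 was small. Over all tested genes, 8.47% were lower in all L100 libraries in this way. The means were 217 ± 101 CPM in Q319 and 59.2 ± 42.5 CPM in L100 (SD, n = 3 per group), a ratio of 3.67 in favour of wild type. The log2 fold change was -1.88 ± 0.57 (SE), with a 95% interval from -3.20 to -0.55 and an edgeR adjusted p of 0.291 (unadjusted 0.0116). A log2 fold change at or below that of cat3 was found in 1.84% of tested genes. DESeq2 gave -1.86 ± 0.56 with an adjusted p of 0.0363, on the other side of the threshold.

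The call by DESeq2 depended on single libraries, while the direction did not change in the 16 alternative settings tried. With 1 library left out, the DESeq2 adjusted p of cat3 was 0.0111 without wild type replicate 2 and 0.000154 without L100 replicate 1. It was 0.0898, 0.224, 0.319 and 0.367 without wild type replicate 1, wild type replicate 3, L100 replicate 2 and L100 replicate 3. The edgeR log2 fold change ranged from -2.62 without L100 replicate 1 to -1.45 without wild type replicate 3. Without that wild type library the remaining groups still did not overlap, and the edgeR adjusted p was 0.405.

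The labels give no sampling time, so the level of clock genes is set beside that of cat3. GIGANTEA-type genes and pseudo-response regulators are components of the plant clock whose transcripts peak at set hours of the day. The gigantea gene gigz1a (GRMZM2G107101) had 383, 476 and 1075 CPM in wild type replicates 1 to 3 and 481, 468 and 382 CPM in L100 replicates 1 to 3. Its paralog gigz1b (GRMZM5G844173) had 112, 107 and 342 CPM in Q319 and 94.9, 123 and 102 CPM in L100. The pseudo-response regulator gene PRR59 (GRMZM2G135446) had 8.93, 9.07 and 67.2 CPM in Q319 and 10.4, 8.93 and 11.7 CPM in L100. All 3 clock genes were thus highest in wild type replicate 3, the library with the most cat3, and overlapped between the lines in the others. This library also stood apart over all tested genes (-116 on the first principal component). How many of all genes peak in it was not counted. None of the 3 clock genes passed the test (edgeR adjusted p 0.603 to 0.730), and their part in the cat3 difference was not tested.

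Sums of mesophyll markers and of heat shock genes did not overlap between the lines either. Taken singly, 2 of 2 mesophyll genes and 7 of 13 tested heat shock genes did not overlap, all higher in L100. Over all tested genes 16.2% did not overlap, in either direction. The mesophyll markers pep1 (phosphoenolpyruvate carboxylase) and pdk1 (pyruvate phosphate dikinase) summed to 44853, 73331 and 56825 CPM in Q319 and 83112, 97503 and 80156 CPM in L100. These sums lay higher in L100, but neither gene passed the test (edgeR adjusted p 0.664 for pep1 and 0.689 for pdk1). The bundle sheath markers, which include the NADP-malic enzyme gene me3 and the small subunit genes of Rubisco, overlapped between the lines at 14134 to 22993 CPM in Q319 and 21501 to 27436 CPM in L100. The ratio of the mesophyll to the bundle sheath sum overlapped as well, at 2.01, 3.19 and 4.02 in wild type and 3.65, 3.55 and 3.73 in L100. In these leaf samples, fewer cells of a type and less RNA per cell cannot be told apart. Summed over 14 genes with an hsp symbol, heat shock transcripts were at 1412, 3102 and 783 CPM in Q319 and 3328, 5805 and 5248 CPM in L100. The libraries ranked by cat3 from high to low stood in the same order as when ranked by this sum from low to high. That order was noticed after the values were seen. The first principal component of log2 CPM, taken over all tested genes, put the libraries in this order as well. The order is therefore not particular to cat3 and the heat shock genes. The part of the mesophyll and heat shock differences in that of cat3 was not tested.

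**Figure D2:**
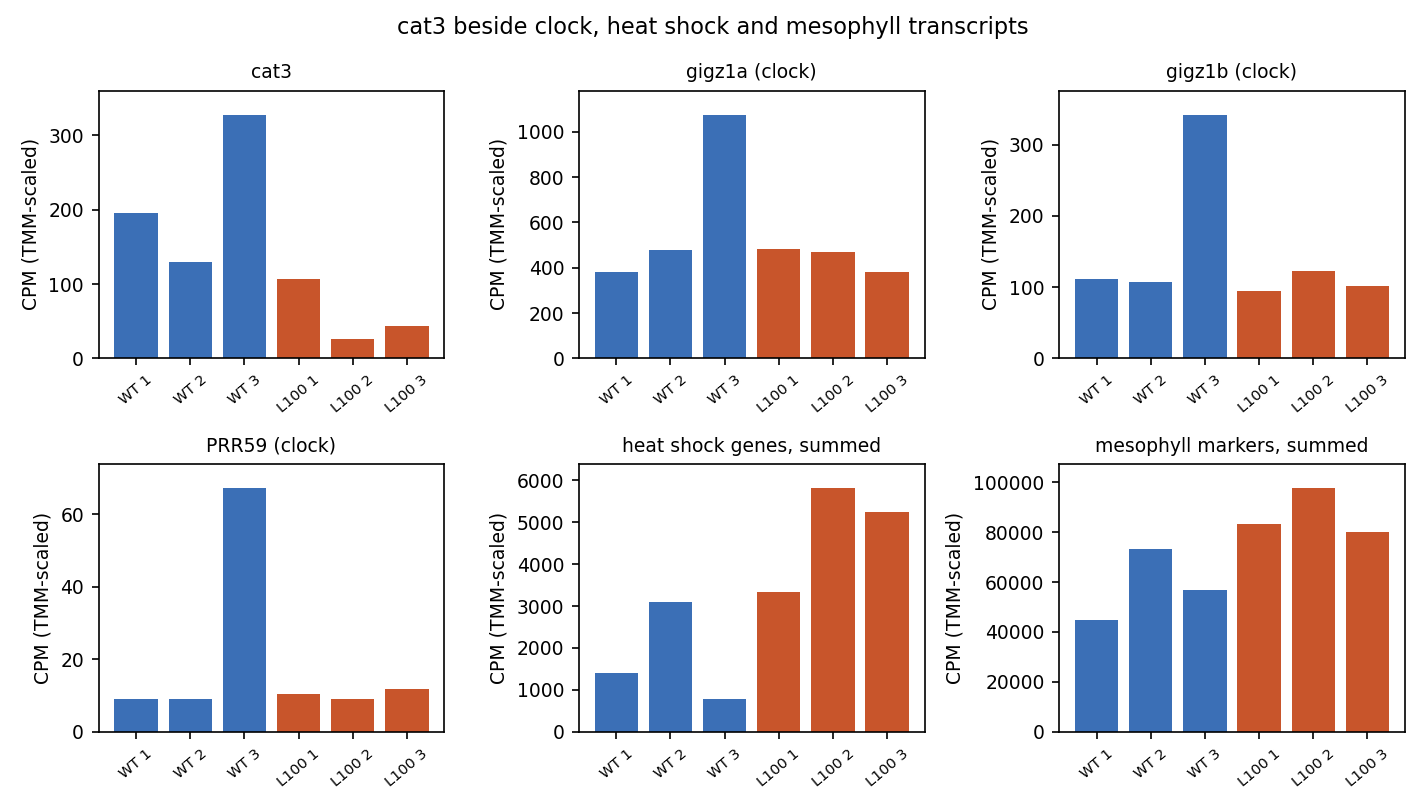
Level of cat3, of 3 clock genes and of the summed heat shock (14 genes) and mesophyll (2 genes) transcripts in every library, as CPM on TMM-scaled totals. Each bar is 1 library. The clock genes peak in wild type replicate 3, and the heat shock and mesophyll sums are higher in all L100 libraries than in any wild type library.

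The cat2 transcript encodes the catalase associated with bundle sheath cells and photorespiration. Per kilobase it was the most abundant of the 3 catalases in each library except wild type replicate 3, where cat3 was. It had 236, 814 and 231 CPM in wild type replicates 1 to 3 and 375, 562 and 615 CPM in L100 replicates 1 to 3. Wild type replicate 2 stood above all L100 libraries and the other wild type libraries stood below them. The spread within wild type, 3.52-fold from the lowest to the highest library, exceeded the ratio of the means, 1.21. The means were 427 ± 335 and 518 ± 126 CPM, and the log2 fold change was 0.28 ± 0.53 (SE), with a 95% interval from -0.95 to 1.51 (edgeR adjusted p = 0.904). The interval holds values on both sides of 0, so neither a rise nor a fall in L100 was detectable. Without wild type replicate 2 the log2 fold change was 1.16 (edgeR adjusted p = 0.137), and DESeq2 then called cat2 (adjusted p = 0.0109) among 1324 genes, 5.9% of those it tested. Without wild type replicate 1 or 3 it was -0.015 or -0.022.

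The cat1 transcript was the steadiest of the 6. It had 84.6, 91.4 and 66.2 CPM in wild type replicates 1 to 3 and 88.8, 86.9 and 90.2 CPM in L100 replicates 1 to 3. The L100 libraries lay within the wild type range and differed among themselves by a coefficient of variation of 1.91%, against 16.1% in wild type. The lowest value was that of wild type replicate 3. Over the 6 libraries the SD of its log2 CPM was 0.17, and 4.53% of tested genes had a smaller one. The log2 fold change was 0.14 ± 0.24 (SE), with a 95% interval from -0.42 to 0.69 (edgeR adjusted p = 0.894).

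**Figure D3:**
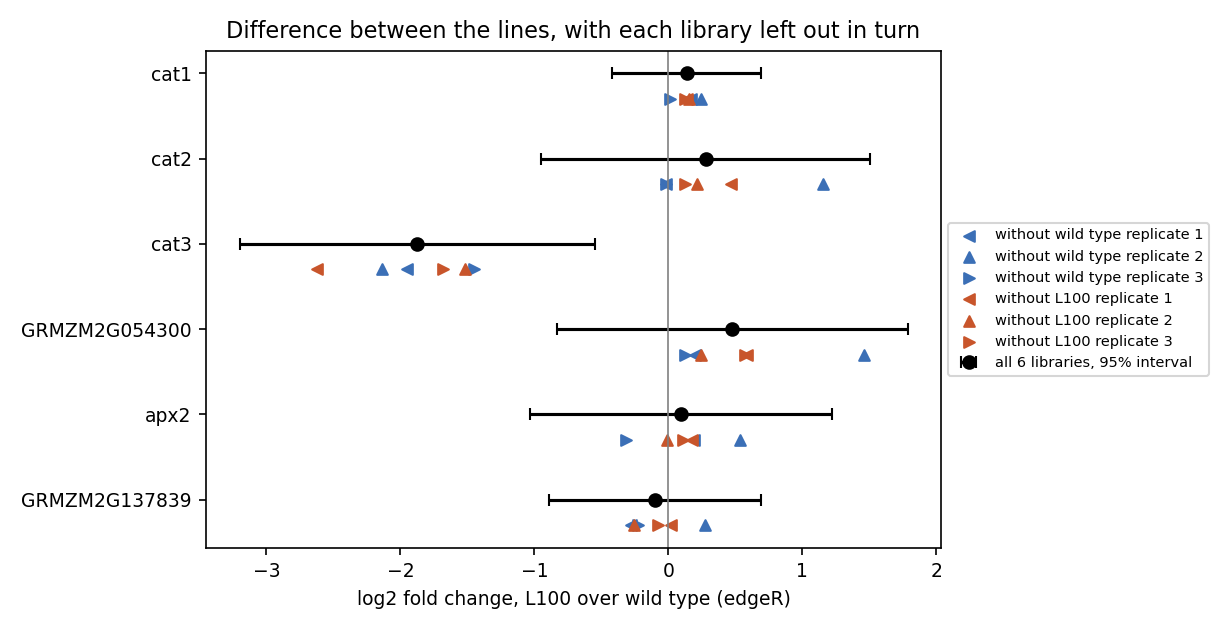
Log2 fold change of each gene, L100 over wild type, by edgeR. Black points and bars are the estimate from 6 libraries with its 95% interval, and triangles are the estimates with 1 library left out. The interval of cat3, -3.20 to -0.55, is the only one that does not reach 0, and the estimates of cat2 and GRMZM2G054300 move most when wild type replicate 2 is left out.

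Summed over the 3 genes, catalase transcripts did not separate the lines. The total was 515, 1034 and 625 CPM in wild type replicates 1 to 3 and 572, 675 and 749 CPM in L100 replicates 1 to 3. The makeup of the total varied more. Levels of different genes are compared here as counts per kilobase of the length in the deposited tables. On that scale cat3 made up 30.4%, 9.38% and 44.2% of catalase transcripts in wild type and 14.3%, 2.89% and 4.29% in L100. The share of cat2 was 50.1%, 80.8% and 42.6% in wild type and 68.2%, 83.2% and 82.6% in L100. That of cat1 was 19.5%, 9.81% and 13.2% in wild type and 17.5%, 13.9% and 13.1% in L100. On average the cat3 share was 27.99 ± 17.5% in wild type and 7.15 ± 6.22% in L100 (SD, n = 3 per group), but wild type replicate 2 fell within the L100 range, so the shares overlapped. The difference of the mean cat3 shares, -20.84 percentage points, was -12.74 percentage points without wild type replicate 3. That of the cat2 shares, 20.16 percentage points, was then 12.55 percentage points. The ratio of cat2 to cat3 per kilobase was 1.65, 8.61 and 0.965 in wild type and 4.78, 28.8 and 19.3 in L100, again with an overlap. The ratio of cat1 to cat3 per kilobase was 0.640, 1.05 and 0.298 in wild type and 1.22, 4.82 and 3.06 in L100 and did not overlap. As cat1 was the steadiest gene, this ratio mostly restates the cat3 levels and is not separate support. The shares and ratios per kilobase depend on the length used. By the authors' FPKM the ratio of cat1 to cat3 was 0.397, 0.647 and 0.183 in wild type and 0.737, 3.03 and 1.85 in L100, without overlap but below 1 in L100 replicate 1. By FPKM the ratio of cat2 to cat3 was 1.24, 6.39 and 0.718 in wild type and 3.51, 22.2 and 14.3 in L100, and the mean cat3 share was 34.3 ± 20.3% in wild type and 9.56 ± 8.28% in L100, both with an overlap. No test was run on shares and ratios, which are summaries over the genes.

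**Figure D4:**
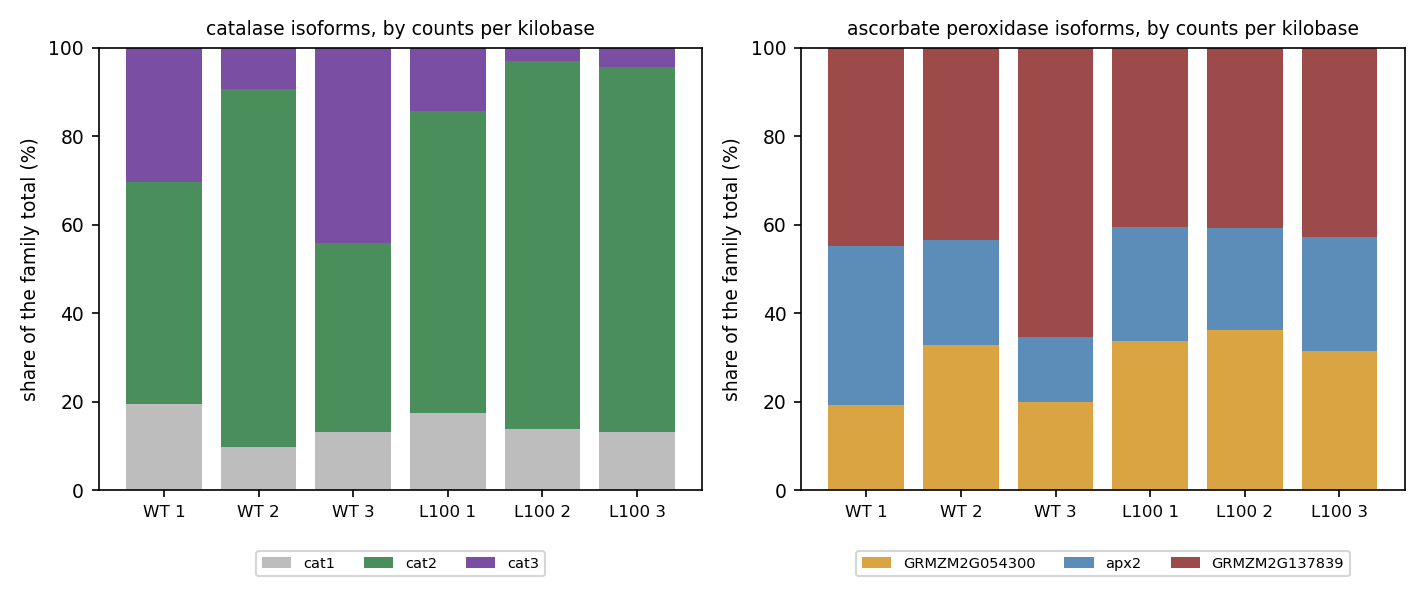
Share of each gene in the total of its family in every library, in percent of counts per kilobase. Stacked segments are the genes, and each bar is 1 library. The cat3 segment is 9.38% to 44.2% in wild type and 2.89% to 14.3% in L100. The GRMZM2G137839 segment is 43.4% to 65.4% in wild type and 40.5% to 42.7% in L100, without overlap but with a narrow gap.

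Among the ascorbate peroxidases, GRMZM2G054300 varied most between libraries. It had 108, 375 and 85.0 CPM in wild type replicates 1 to 3 and 222, 344 and 225 CPM in L100 replicates 1 to 3. As for cat2, the L100 libraries lay between wild type replicate 2 and the other wild type libraries. The means were 190 ± 161 and 264 ± 69.6 CPM, and the log2 fold change was 0.48 ± 0.57 (SE), with a 95% interval from -0.83 to 1.78 (edgeR adjusted p = 0.826). Without wild type replicate 2 it was 1.46 (edgeR adjusted p = 0.0854), and DESeq2 then called the gene (adjusted p = 0.00116), again among the 1324. It was 0.12 without wild type replicate 3.

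The apx2 transcript was low in 1 library. It had 177, 236 and 54.6 CPM in wild type replicates 1 to 3 and 148, 190 and 161 CPM in L100 replicates 1 to 3. Wild type replicate 3 was the lowest of the 6 libraries, and the L100 libraries lay between it and wild type replicate 2. The means were 156 ± 92.3 and 166 ± 21.7 CPM. The log2 fold change was 0.094 ± 0.49 (SE), with a 95% interval from -1.03 to 1.22 (edgeR adjusted p = 0.969), and -0.31 without wild type replicate 3.

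GRMZM2G137839 had the highest mean of the ascorbate peroxidases per kilobase in both lines. It had 190, 373 and 211 CPM in wild type replicates 1 to 3 and 202, 291 and 230 CPM in L100 replicates 1 to 3, with means of 258 ± 100 and 241 ± 45.7 CPM. The L100 libraries lay within the wild type range. The log2 fold change was -0.100 ± 0.34 (SE), with a 95% interval from -0.89 to 0.69 (edgeR adjusted p = 0.949). Without wild type replicate 2 it turned to 0.27.

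The ascorbate peroxidase total was 475, 984 and 351 CPM in wild type replicates 1 to 3 and 572, 825 and 615 CPM in L100 replicates 1 to 3, with L100 inside the wild type range. By counts per kilobase, GRMZM2G137839 made up 44.7%, 43.4% and 65.4% of it in wild type and 40.5%, 40.7% and 42.7% in L100. These shares did not overlap, but wild type replicate 2 and L100 replicate 3 lay close together. The difference of the means, -9.87 percentage points, was -2.75 percentage points without wild type replicate 3. GRMZM2G054300 made up 19.3%, 32.9% and 19.9% in wild type and 33.8%, 36.3% and 31.5% in L100, and apx2 36.0%, 23.7% and 14.7% in wild type and 25.7%, 23.0% and 25.8% in L100. Both overlapped between the lines. The makeup in L100 was close to that in wild type replicate 2. In each line, replicate 2 had the highest ascorbate peroxidase total and the highest level of each gene in it.

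By counts per kilobase, the order of the 6 genes was the same from the third place down in all L100 libraries. In L100, cat2 (323 ± 78.7 CPM per kilobase) and GRMZM2G137839 (320 ± 60.6) shared the top and did not differ beyond their spread. GRMZM2G054300 (265 ± 69.9) overlapped with both. Next came apx2 at 191 ± 25.0, then cat1 at 59.9 ± 1.15 and cat3 at 27.1 ± 19.5, and the libraries of none of these 3 overlapped with those of the gene above it. In wild type the means ran from 343 ± 133 for GRMZM2G137839 over 267 ± 209 for cat2, 190 ± 162 for GRMZM2G054300 and 179 ± 106 for apx2 to 99.4 ± 46.3 for cat3 and 54.6 ± 8.81 for cat1. In wild type the spreads of all neighbours in that order overlapped. Within single libraries, however, cat2 stood above GRMZM2G054300 in each of the 6. Their ratio per kilobase was 1.35, 1.35 and 1.69 in wild type and 1.05, 1.02 and 1.70 in L100. The length used affects this order. Of the 6 lengths in the tables, 3 are multiples of 3 bases (cat1, GRMZM2G054300 and GRMZM2G137839) and those of cat2, cat3 and apx2 are not, so they may mix coding lengths with others. The tables give cat3 a length of 2185 bases and cat2 one of 1600, a ratio of 1.37, while their FPKM values imply a ratio of 1.02. By the authors' FPKM, cat3 ranked above cat1 in all wild type libraries and in L100 replicate 1 (60.2 against 44.4 FPKM), and below it in L100 replicates 2 and 3 (14.3 against 43.2 and 24.2 against 44.6 FPKM). On that scale GRMZM2G054300 and apx2 overlapped in L100, at 157 to 244 and 127 to 164 FPKM. By FPKM, cat2 was also first in each L100 library, at 211, 318 and 345 FPKM in replicates 1 to 3. GRMZM2G137839 had 167, 243 and 190 FPKM there, so the ranges of these genes still overlapped.

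The enzymes that restore ascorbate and the other genes of the pathway were read from lists matched by symbol. None of their members was called by edgeR, where 0.834% of all tested genes were. Outside the heat shock genes none had an unadjusted edgeR p under 0.05, against 10% of all tested genes. None of these was called by DESeq2 or limma-voom either, against 2.72% and 0.829% of all. In lists this short, no call is near those shares, so it is not a result about these genes. In the ascorbate-glutathione cycle 5 genes were tested, 3 with a log2 fold change above 0, and their median was 0.016, against -0.028 over all tested genes. Dehydroascorbate reductase dhar1 (GRMZM5G855672) was the most abundant, at 161 ± 90.7 CPM in Q319 and 234 ± 48.8 CPM in L100 (edgeR adjusted p = 0.746). The glutathione reductase gene gor1 (GRMZM2G172322) had 147 ± 20.5 and 140 ± 19.9 CPM (edgeR adjusted p = 0.951). Both lie within the spread of the libraries.

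Superoxide dismutases convert superoxide to the hydrogen peroxide that catalase and ascorbate peroxidase remove. Of 7 tested, 5 had a log2 fold change below 0, with a median of -0.29. The most abundant was a gene with the synonyms sod-1a and sodC (GRMZM2G106928), at 480 ± 174 CPM in Q319 and 301 ± 141 CPM in L100 (edgeR adjusted p = 0.668). The next was sod2 (GRMZM2G025992), at 94.8 ± 32.9 and 88.2 ± 15.0 CPM (edgeR adjusted p = 0.941). All 7 overlapped between the lines.

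Among genes that produce hydrogen peroxide, 5 were tested, 3 of them with a log2 fold change above 0 and a median of 0.077. The glycolate oxidase gene go1 (GRMZM2G129246), whose product makes hydrogen peroxide in peroxisomes during photorespiration, had 700, 890 and 658 CPM in Q319 and 634, 728 and 742 CPM in L100 (edgeR adjusted p = 0.939). The polyamine oxidase gene mpao1 (GRMZM2G034152) had 81.5 ± 32.9 CPM in Q319 and 137 ± 52.7 CPM in L100 (edgeR adjusted p = 0.610). The lines overlapped in both genes. Of 6 genes with a PER or PRX symbol, 1 was tested, PER42 (GRMZM2G126261), at 30.1 ± 12.9 and 45.0 ± 7.72 CPM (edgeR adjusted p = 0.642), and 3 were at 0 counts in all libraries. Of 13 tested heat shock genes, 12 had a log2 fold change above 0, with a median of 1.85. Over all tested genes 47.6% had a log2 fold change above 0. In this list 7 had an unadjusted edgeR p under 0.05, against 10% of all tested genes. DESeq2 called 3, hsp18 (GRMZM2G149647), hsp101 (GRMZM2G360681) and hsp82 (GRMZM5G833699), against 2.72% of the genes it tested, while limma-voom called 0. Of these, hsp18 and hsp82 were low in wild type, at 0.894 to 1.44 and 0.0838 to 3.19 CPM. In wild type replicate 3, hsp82 was under the floor of 3 counts. The most abundant were HSP90-1 (GRMZM2G024668), at 597 ± 635 and 2152 ± 618 CPM (edgeR adjusted p = 0.549), and hsp70-4 (GRMZM2G340251), at 693 ± 249 and 1240 ± 239 CPM (edgeR adjusted p = 0.486).

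The genes whose log2 CPM ran most like each of the 6 over the 6 libraries were taken from 1506 genes that have a symbol and average 5 CPM or more. For cat3 they were AMA1 (GRMZM2G172369) and NRH3 (GRMZM2G104999), with a Pearson r of 0.952 and 0.951, and 18 candidates reached 0.9. AMA1 had 93.2, 68.5 and 174 CPM in Q319 and 82.4, 41.1 and 45.2 CPM in L100, a narrower range than that of cat3, and its lines overlapped. For cat2 they were SUMO1b (GRMZM2G082390) and brd103 (GRMZM2G040079), with 0.993 and 0.990, and for cat1 MED26.15 (GRMZM2G120971) and gtr1 (GRMZM2G177412), with 0.993 and 0.992. MSRB1 (GRMZM2G025322) and gst5 (GRMZM2G308687) were most like GRMZM2G054300, with 0.995 and 0.993. MSRB1 had 92.8, 340 and 59.6 CPM in Q319 and 186, 317 and 215 CPM in L100, the same order of libraries as the peroxidase gene. ARF13 (GRMZM2G378580) and plt2 (GRMZM2G010868) were most like apx2, with 0.997 and 0.986. For GRMZM2G137839 they were dhar3 (GRMZM2G035502), a dehydroascorbate reductase gene, and LOL3 (GRMZM2G120069), with 0.955 and 0.953. Likeness over so few libraries was common: 108 candidates reached 0.9 with cat1 and 93 with apx2. The values share libraries and scaling, and they are a description only.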

How the data were processed

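Each of the 6 leaf libraries has 1 table. Bowtie 0.12.2 and the build B73 RefGen_v3 were used, per the submitters' processing notes. How reads were counted is not stated there. Per the file headers, the tables deposited by the authors hold an estimated count per gene, an FPKM value, a gene length, and 2 equal columns of scaled fragments, a signal that differs from the count by a constant in each library. Of the estimated counts, 0.300% were off a whole number by more than 0.001, none of them in the 6 genes, and all were rounded. Lengths were multiples of 3 for 88.7% of genes but for only 3 of the 6 described here. Reads shared by similar copies of a family may be split between them.

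The test was the quasi-likelihood test of edgeR 4.0.16 in R 4.3.3, with TMM, filterByExpr and no block. Standard errors are the absolute log2 fold change over the square root of F. Alternatives were DESeq2 1.42.0, limma-voom (limma 3.58.1) with and without library weights, other scalings and filters, a replicate block and each library left out. The script was tested on simulated data. Names came from a RefSeq gene table (Zm-B73-REFERENCE-NAM-5.0), which is not the build of the deposited tables, so no coordinates are given; 5 of the 6 genes had a record. The genes and lists were chosen with earlier results of these data known. Named were the 6 genes with their values in each library, called list members or else the 2 most abundant of a list, and the 2 genes with a symbol and a mean of at least 5 CPM most correlated with each of the 6. Libraries of a line differed by more than sampling noise (chi-square per gene 14.4 to 119, where noise gives about 1), which does not show that they came from separate plants or RNA. Floors cover counting error only.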

Additional observations from a re-analysis of the deposited data

How the results depend on the processing

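edgeR called 156 genes with all libraries and 10 with the stricter filter, and DESeq2 called 611. With 1 library left out edgeR called 0 to 222. The 0 arose without L100 replicate 2 or 3, where 1295 and 1282 genes had an unadjusted p under 0.05 and DESeq2 called 337 and 311. Of the 6 genes, DESeq2 called 1 (cat3, log2 fold change -1.86) and the other settings with all libraries none. With 1 library left out the edgeR log2 fold change ranged from -0.022 to 1.16 for cat2, from -0.31 to 0.53 for apx2 and from -0.28 to 0.27 for GRMZM2G137839, so their directions depend on single libraries; cat1 (0.0097 to 0.24), GRMZM2G054300 (0.12 to 1.46) and cat3 (-2.62 to -1.45) kept theirs. The cause was not tested. Scaling by the authors' factors and the DESeq2 fits with a library left out were added after the data were seen.

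With the replicate number as a block edgeR called 5 genes, and cat3 had a log2 fold change of -2.02 with an edgeR adjusted p of 0.179. An unadjusted edgeR p under 0.05 was found for 2287 genes with the block and 1878 without it. Deviations from the group means correlated between same-numbered libraries at 0.384, 0.348 and 0.015 for replicates 1 to 3. They correlated at -0.406 between wild type replicate 2 and L100 replicate 1. Between wild type replicate 1 and L100 replicate 2 the value was -0.301. Wild type replicate 3 correlated best with L100 replicate 1 (0.074). With so few libraries these values do not decide whether equal numbers pair the samples. The labels do not state a pairing, so the main fit has no block. The lowest count of any of the 6 genes was 164, so depth limits none of them.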
